A study of Drosophila melanogaster with 24 samples.

Results

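Intergenic peaks of open chromatin that lie far from any annotated gene were followed in the brains of adult female Drosophila melanogaster with altered histone H3.3. A peak was a member when it lay more than 2 kb from the body of every gene of any biotype in the RefSeq Release 6 annotation and inside fixed ranges of 4 chromosome arms. By peak start the ranges ran over 1 to 19.5 Mb on 2L and X, 1 to 24.1 Mb on 3L and 4 to 31.05 Mb on 3R. In all, 473 of 11145 peaks (4.24%) met the rule, with 161 on 3L, 151 on 3R, 89 on 2L and 72 on X.

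Accessibility was measured by ATAC-seq, in which a transposase inserts sequencing adapters into open DNA, in H3.3H3.2, H3.3null, H3.3S31A and OreR females, taken 10 days or 1 day after eclosion (8 groups, 3 libraries apiece). From the names, H3.3H3.2 carries replicative H3.2 where H3.3 would be, H3.3null lacks H3.3, and H3.3S31A carries alanine instead of serine at a tail residue of H3.3. OreR is the laboratory wild type Oregon-R, which sample titles also call H33WT. The labels give neither the alleles, the crosses nor a batch, and no line with unmodified H3.3 in the mutants' own background was used here. Strain background and the H3.3 alteration therefore cannot be told apart in any mutant against OreR comparison. Whether the mutant lines share a background is not given either, so the same limit holds for H3.3H3.2 against H3.3null. The labels' extraction text describes RNA from pools of 8 brains and RNA libraries, against the genomic DNA that the same labels name, and the values were read as the ATAC-seq counts the series describes. The labels do not say that replicates came from separate flies, so every p-value below measures only the spread between these libraries.

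Distal regulatory elements such as enhancers are stretches of DNA bound by transcription factors, where nucleosomes are displaced and the transposase can cut, and many control a gene that is not the nearest one. H3.3 is the replacement form of histone H3, which is laid down outside of DNA replication and accumulates at active genes and regulatory elements of non-dividing cells such as neurons. H3.2 is laid down mainly during replication, so an adult brain of mostly non-dividing cells is a tissue in which both forms can be compared.

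Each library held 3021672 to 4890579 counts in peaks, of which the members took 3.91% to 4.22%. Every member had at least 27 counts in every library, and the median count of a member in a library was 228, against 253 over all peaks. No member was lost to the filter on low counts, which removed 0 peaks. Peaks overlapped 8 of 8 neuronal marker genes (summed level 2917 to 3329 across libraries, in counts per 1000000 counts, CPM) and 4 of 5 glial ones (609 to 763 CPM), while none overlapped the listed muscle, hemocyte or retina genes. The fat body list had peaks at 2 of 5 genes (62.4 to 86.1 CPM) and the germ line list at 1 of 4 (57.4 to 91.3 CPM, with nos absent from the gene table). In bulk brains, fewer cells of a type and less open chromatin per cell cannot be told apart. Peaks at the H3.3 genes were read as a check of the H3.3null label alone, and the H3.3H3.2 and H3.3S31A labels were not checked. The His3.3B peak at X 9154788 to 9155165 held 9.3 to 18.5 CPM in the H3.3null libraries, 39.4 to 54.6 CPM in H3.3H3.2 and H3.3S31A, and 36.6 to 48.4 CPM in OreR. A neighbouring peak at the gene, at X 9155649 to 9156872, held 209 to 246 CPM in H3.3null and 193 to 228 CPM in OreR, and the extent of any deletion is not in the labels. At His3.3A, the peak at 2L 5054989 to 5055227 held 41.6 to 56.6 CPM in H3.3null and 45.1 to 62.7 CPM in OreR, and that at 2L 5055623 to 5055921 held 41.4 to 65.4 CPM in H3.3null and 18 to 27.4 CPM in OreR.

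The members sat a median of 4852 bp from the nearest gene, with a range of 2024 to 92739 bp. The member just inside the limit lay at 2024 bp, and the nearest peak just outside it lay at 1997 bp. The nearest gene was protein-coding for 340 members, a long noncoding RNA for 119 and a transfer RNA for 8. Member peaks had a median width of 444 bp, against 454 bp over all peaks. Their median level was 55.5 CPM, averaged over the 24 libraries, against 60.9 CPM over all peaks and 59.7 CPM over the 6447 other peaks of the same arm ranges. Per kb of peak the median was 120 CPM for members, 136 CPM for all peaks and 145 CPM for the other peaks of the same ranges. The members fell into 256 intervals between neighbouring protein-coding genes, of which 155 held a single member and 29 held 4 or more. An interval is named here by its flanking protein-coding genes, and a flanking gene is not thereby the gene that a peak controls.

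The word euchromatic rests on position only, since no histone mark was measured. Of the members, 47 lay at the centromere end of the ranges, with 34 on 3L from 23000000 and 13 on 3R below 4200000. They included all 13 peaks in the interval of 209 kb between ND-MLRQ, which encodes a subunit of respiratory complex I, and AGO3, which encodes an Argonaute protein of the piRNA pathway and is a known gene of pericentric heterochromatin. The 3 members farthest from any gene, at 88841 to 92739 bp, lay there. The other 426 members are given separately where this matters, a split chosen after the values were seen.

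The 3 members of highest level were also the 3 widest, and all lay on 3L. The peak at 3L 5114805 to 5122042 (7237 bp), between the adhesion gene Con and CG4597, averaged 1292 CPM. It held 926 to 1671 CPM in the mutant libraries, against 1057 to 1369 CPM in OreR. A second, at 3L 5459715 to 5466566, beside DIP-delta, which encodes a cell-surface immunoglobulin protein of synaptic partner matching, averaged 1082 CPM. Neither of these was called in any mutant against OreR comparison. The next, at 3L 12919394 to 12924733, between CG32115 and CG10752, held 712, 732 and 753 CPM in H3.3null at day 1, against 833, 1027 and 1099.8 CPM in OreR. The groups did not overlap, and the log2 fold change was -0.43 ± 0.13 (SE, adjusted p 0.0139).

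In the main test, edgeR's quasi-likelihood test with Benjamini-Hochberg adjustment over all 11145 peaks, calls were made where the adjusted p was under 0.05. Fold changes are log2, mutant over OreR or day 10 over day 1, with their SE. Peaks named for a smallest p were picked among called members whose libraries did not overlap between the groups. For those peaks the lack of overlap is a description and adds no support to the call. At day 10, 63 members (13.3%) were called in H3.3H3.2 against OreR, 36 higher and 27 lower, where 10.7% of all peaks were called (7.13% up, 3.54% down). In H3.3null 135 members (28.5%) were called, 83 higher and 52 lower, against 24.5% of all peaks (15.5% up, 9% down). In H3.3S31A 57 members (12.1%) were called, 33 higher and 24 lower, against 10.2% of all peaks (6.43% up, 3.77% down). At day 1, 65 members (13.7%) were called in H3.3H3.2, 40 higher and 25 lower, where 11.1% of all peaks were called (6.94% up, 4.21% down). In H3.3null 121 members (25.6%) were called, 62 higher and 59 lower, against 24.7% of all peaks (14.1% up, 10.6% down). In H3.3S31A 63 members (13.3%) were called, 30 higher and 33 lower, against 10.5% of all peaks (6.24% up, 4.27% down). Members were thus called at shares near or slightly above those of all peaks. The other peaks of the same arm ranges were called less often by count, at 5.96% to 6.61% in H3.3H3.2 and H3.3S31A and 19.1% to 19.8% in H3.3null, and this difference was not tested. The 3 mutants share the OreR libraries of their age. Some counts rested on single libraries. The day 10 count in H3.3H3.2 was 38 without H3.3H3.2 day 10 replicate 1 and 41 without OreR day 10 replicate 1. At day 1 that of H3.3H3.2 was 41 without H3.3H3.2 day 1 replicate 2, and that of H3.3S31A was 38 without OreR day 1 replicate 2.

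**Figure D1:**
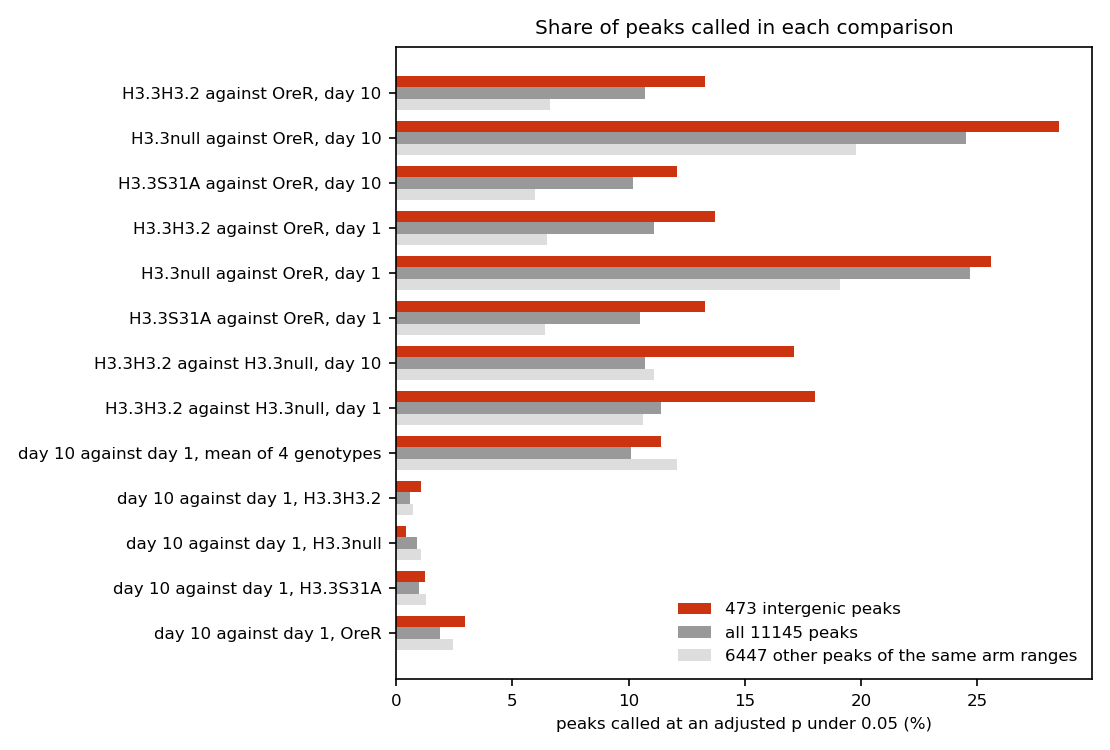
Share of peaks called at an adjusted p under 0.05 (x axis, percent) in 13 comparisons, for the 473 intergenic peaks, for all 11145 peaks and for the 6447 other peaks of the same arm ranges. Bars of the intergenic peaks reach 28.5% in H3.3null at day 10 and lie between 12.1% and 13.7% when H3.3S31A or H3.3H3.2 is set against OreR.

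Some members were more open in all 3 mutants than in OreR. The clearest was the 295 bp peak at 3R 30946407 to 30946702, 9305 bp from CG15550 and on the other side followed by CG15548. At day 10 it held 64.5, 70.04 and 66.2 CPM in H3.3H3.2, 64.4, 59.4 and 56.04 CPM in H3.3null and 73.2, 66.9 and 82.1 CPM in H3.3S31A, against 17.96, 20.1 and 19.1 CPM in OreR. At day 1 it held 65.2, 68.7 and 71.1 CPM in H3.3H3.2, 67.2, 77.9 and 60.2 CPM in H3.3null and 72.95, 74.1 and 79.3 CPM in H3.3S31A, against 13.5, 17.8 and 20.6 CPM in OreR. Every mutant library lay above every OreR library, by a wide gap. The log2 fold changes at day 10 were 1.81 ± 0.13 (SE, adjusted p 3.21e-13) in H3.3H3.2, 1.65 ± 0.13 (SE, adjusted p 3.9e-12) in H3.3null and 1.95 ± 0.13 (SE, adjusted p 3.15e-14) in H3.3S31A, and those at day 1 were 1.97, 1.97 and 2.11 in the same order. H3.3H3.2 and H3.3null did not differ detectably there at day 10 (0.16 ± 0.11, adjusted p 0.43).

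On X, all 4 members between Ir10a, which encodes an ionotropic receptor, and sisA, which encodes an X-linked counting element of early sex determination, rose in each mutant at both ages. They lie within 5215 bp of one another in an interval of 10.4 kb. The first, at X 11314207 to 11314791, held 59.2, 58.8 and 55.4 CPM in H3.3H3.2, 69.4, 65.9 and 63.1 CPM in H3.3null and 72.6, 76.6 and 75.1 CPM in H3.3S31A at day 10, against 30.2, 33.4 and 32.04 CPM in OreR. At day 1 the mutant libraries held 41.2 to 71.8 CPM, against 32.01 to 34.2 CPM in OreR. The groups did not overlap at either age. The peak at X 11318824 to 11319422 changed most in H3.3S31A, with 78.7, 84.8 and 83.1 CPM at day 10, against 18.7, 36.6 and 28.4 CPM in OreR, a change of 1.56 ± 0.16 (SE, adjusted p 5.84e-09). The median change of the 4 members was 0.88, 0.90 and 1.21 in H3.3H3.2, H3.3null and H3.3S31A at day 10, and 0.97, 0.90 and 1.01 at day 1, with all 4 called each time. Over all peaks, 6.24% to 15.5% were called higher in these comparisons. The call of the peak at X 11316353 to 11317091 in H3.3H3.2 at day 10 (0.46 ± 0.13) was lost when H3.3H3.2 day 10 replicate 1, OreR day 10 replicate 1 or OreR day 10 replicate 3 was left out (0.44, 0.38 and 0.44).

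Further members were called higher in every mutant at both ages. One of these, at 3L 23709352 to 23710006, between AGO3 and the splicing factor gene Spf30, held 49.04 to 70.04 CPM in the mutants at day 10, against 34.7, 33.6 and 26.8 CPM in OreR, and 54.9 to 78.8 CPM in the mutants at day 1, against 24.8, 29.6 and 31.4 CPM in OreR. The groups did not overlap, and the changes ran from 0.91 (H3.3null, day 10) to 1.2 (H3.3H3.2, day 1). The peak at 3R 7729572 to 7730096, between CG2616 and CG43254, held 59.1 to 81.8 CPM in the mutants at day 10, against 29.4, 40.5 and 34.3 CPM in OreR. Its change was greatest in H3.3S31A at day 10, at 1.15 ± 0.13 (SE, adjusted p 2.13e-08). A peak on 2L, at 2L 16223738 to 16224035, next to Ca-Ma2d, which encodes an auxiliary subunit of voltage-gated calcium channels, held 34.5 to 45.5 CPM in the mutants at day 10, against 18.95, 27.3 and 28.9 CPM in OreR, with changes of 0.67 to 0.74. A smaller rise stood at 2L 9673204 to 9673547, between CG33299 and Pka-C1, which encodes the catalytic subunit of protein kinase A. It was 0.60 ± 0.14 in H3.3null and 0.43 ± 0.14 in H3.3S31A at day 10, where the H3.3S31A libraries (56.8, 45.7 and 35.7 CPM) overlapped OreR (31.7, 39.04 and 32.9 CPM). That call was lost when H3.3S31A day 10 replicate 1 or 2 or OreR day 10 replicate 1 or 3 was left out (0.25 to 0.44), and also when only the groups compared were fitted (adjusted p 0.0973). Its call in H3.3S31A at day 1 was lost without H3.3S31A day 1 replicate 1 or 2 or OreR day 1 replicate 2 or 3 (0.33 to 0.45), with DESeq2 size factors (adjusted p 0.0518) and with only the groups compared (adjusted p 0.0753). In H3.3H3.2, leaving out OreR day 10 replicate 1 ended the older flies' call (0.48), and the day 1 call ended without any H3.3H3.2 day 1 replicate or OreR day 1 replicate 2 or 3 (0.37 to 0.46). In H3.3null the call in day 1 flies ended without H3.3null day 1 replicate 1 or 2 or OreR day 1 replicate 3 (0.40 to 0.44).

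**Figure D2:**
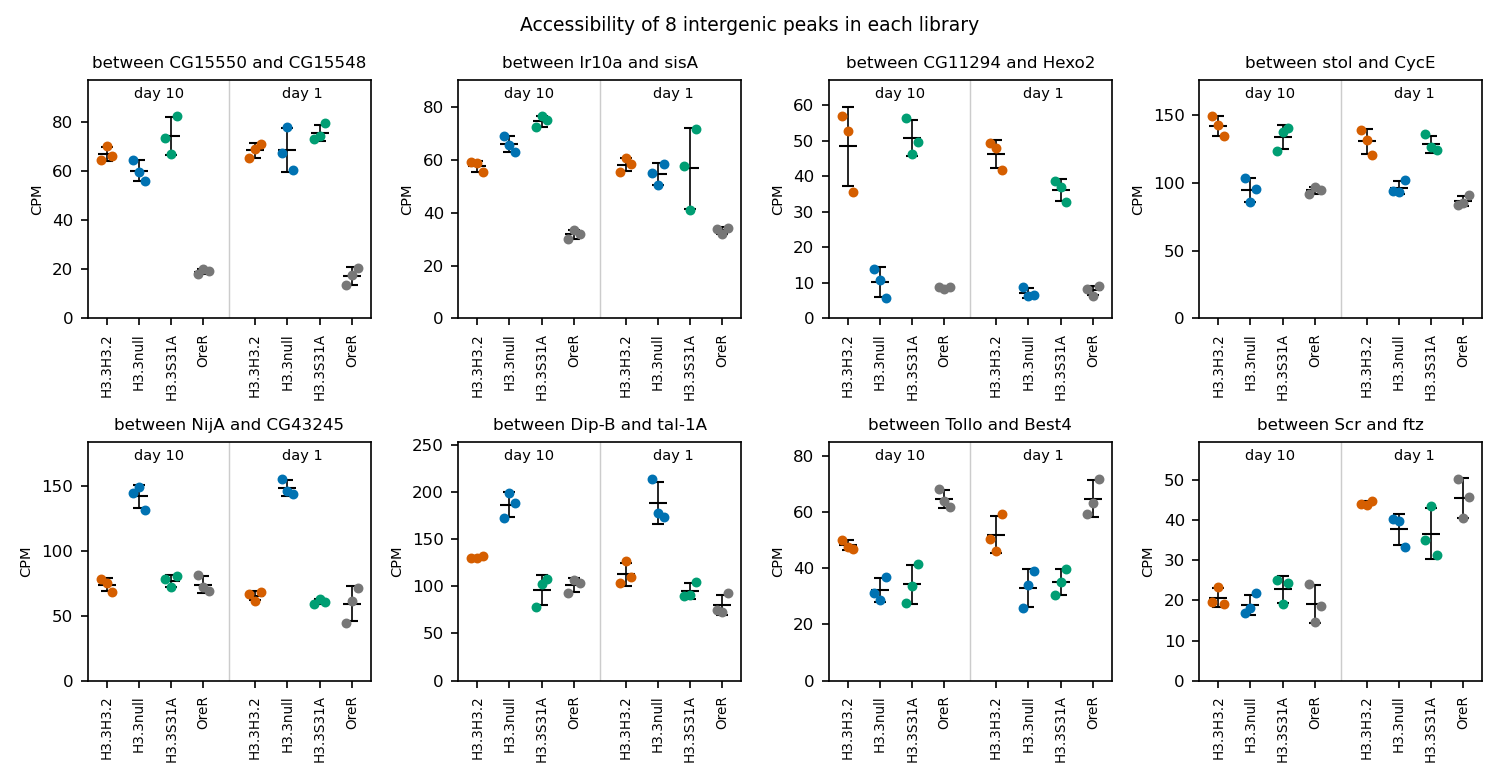
Accessibility (y axis, CPM, linear from 0) of 8 intergenic peaks in each of the 24 libraries, with day 10 on the left and day 1 on the right of each panel. Points are libraries, and black bars give the mean and SD (n = 3). The peak between CG15550 and CG15548 holds 56.0 CPM or more in every mutant library and 20.6 CPM or less in every OreR library.

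Several members were higher in H3.3null than in H3.3H3.2 and OreR, and some of them lay close together. No rule set beforehand chose the intervals named here and below, and adjacent members had correlated changes. The share of all peaks called higher in H3.3null was 15.5% at day 10 and 14.1% at day 1, with 9% and 10.6% lower. On 3L, 17 members lie in the 75 kb between NijA, which encodes a cell-surface protein of the ninjurin family, and CG43245. Of these, 7 were higher and 1 lower in H3.3null at day 10, and 7 were higher and 0 lower at day 1. One of them, at 3L 10722379 to 10723202, held 145, 149.8 and 132 CPM in H3.3null at day 10, against 81.3, 72.2 and 69.1 CPM in OreR. At day 1 it held 156, 146 and 144 CPM in H3.3null, against 44.7, 61.4 and 71.6 CPM in OreR. H3.3H3.2 (61.5 to 78.2 CPM) and H3.3S31A (58.8 to 80.4 CPM) stayed in or near the OreR range of 44.7 to 81.3 CPM, and no H3.3null library overlapped them. The change in H3.3null was 0.94 ± 0.11 (SE, adjusted p 1.32e-08) at day 10 and 1.32 ± 0.11 (SE, adjusted p 7.88e-12) at day 1, and H3.3H3.2 against H3.3null gave -0.94 ± 0.11 (SE, adjusted p 2.8e-08) and -1.18 ± 0.11 (SE, adjusted p 1.58e-10).

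Most of the raised peaks between NijA and CG43245 were neighbours. Those at 3L 10721319 to 10721586, 3L 10723560 to 10723903 and 3L 10726314 to 10726760 changed in H3.3null by 1.05, 0.73 and 0.58 at day 10 and by 1.05, 1.17 and 1.03 at day 1, all called. The 5 members from 10736727 to 10741590, farther along the arm, gave -0.32 to -0.01 at day 10 and -0.22 to 0.22 at day 1. Of these 5, 1 was called in H3.3null, at 3L 10739999 to 10740807 at day 10, and it was lower. Raised members continued beyond CG43245, where the peak at 3L 10777817 to 10778161 changed by 1.14 ± 0.16 at day 10 and 0.93 ± 0.16 at day 1, and the peak at 3L 10811918 to 10812317 by 0.69 ± 0.12 and 1.1 ± 0.12. Before tna the direction turned, where the peak at 3L 10830227 to 10830715 changed in H3.3null by -0.55 ± 0.13 at day 10 and -0.74 ± 0.13 at day 1.

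On 3R, all 5 members between Dip-B, which encodes a dipeptidase, and tal-1A, one of the small peptides of the tarsal-less gene, were higher in H3.3null at both ages. Their median change was 0.86 at day 10 and 0.77 at day 1. The share of all peaks higher in H3.3null was 15.5% at day 10 and 14.1% at day 1. The peak at 3R 13805898 to 13806735 held 129.7, 130.0 and 133 CPM in H3.3H3.2, 173, 199 and 188 CPM in H3.3null and 77.6, 103 and 107 CPM in H3.3S31A at day 10, against 92.5, 107 and 104 CPM in OreR. H3.3null lay above H3.3H3.2, and H3.3H3.2 above OreR, with no overlap, while H3.3S31A overlapped OreR. The changes against OreR were 0.37 ± 0.11 (SE, adjusted p 0.021) in H3.3H3.2 and 0.89 ± 0.11 (SE, adjusted p 6.11e-08) in H3.3null, and H3.3H3.2 against H3.3null gave -0.51 ± 0.11 (SE, adjusted p 0.000831). The wider neighbour at 3R 13804273 to 13805763 held 345, 395 and 341 CPM in H3.3null at day 10, against 222, 229 and 228 CPM in OreR, and again the groups did not overlap (0.67 ± 0.09).

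Likewise on 2L, all 4 members between Tim17b2, named for a mitochondrial import subunit, and lace, which encodes a subunit of serine palmitoyltransferase in sphingolipid synthesis, were higher in H3.3null at both ages. Such rises were called in 15.5% of all peaks at day 10 and 14.1% at day 1. The peak at 2L 15488726 to 15490011 held 208, 207 and 201 CPM in H3.3null at day 10, against 117, 118 and 126 CPM in OreR, and 212, 179 and 167 CPM in H3.3null at day 1, against 81.9, 99.8 and 98.1 CPM in OreR. No libraries overlapped, and the changes were 0.77 ± 0.10 and 0.99 ± 0.10. A single short peak at X 4385345 to 4385559, toward bi, which encodes the T-box factor Omb of optic lobe development, held 31.1, 33.4 and 38.4 CPM in H3.3null at day 10, against 17.5, 15.2 and 17.7 CPM in OreR. H3.3H3.2 (20.8, 19.8 and 15.7 CPM) and H3.3S31A (16.9, 11.8 and 10.01 CPM) lay below every H3.3null library. The change was 1.04 ± 0.19 (SE, adjusted p 7.51e-05) in H3.3null, and H3.3H3.2 against H3.3null gave -0.87 ± 0.19 (SE, adjusted p 0.00131).

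A further group of members rose in H3.3H3.2 as well as H3.3S31A, with H3.3null near OreR. The 317 bp peak at X 8700698 to 8701015, between CG11294 and Hexo2, which encodes a hexosaminidase, held 56.8, 52.6 and 35.7 CPM in H3.3H3.2, 13.9, 10.9 and 5.60 CPM in H3.3null and 56.4, 46.3 and 49.7 CPM in H3.3S31A at day 10, against 8.73, 8.35 and 8.86 CPM in OreR. At day 1 it held 49.2, 47.8 and 41.8 CPM in H3.3H3.2, 8.85, 6.29 and 6.48 CPM in H3.3null and 38.6, 37.1 and 32.8 CPM in H3.3S31A, against 8.16, 6.40 and 9.10 CPM in OreR. H3.3null and OreR overlapped, and both lay far below the other genotypes. Against OreR the changes at day 10 were 2.48 ± 0.21 (SE, adjusted p 1.39e-11) in H3.3H3.2 and 2.55 ± 0.21 (SE, adjusted p 6.78e-12) in H3.3S31A, and 0.17 in H3.3null (adjusted p 0.686). H3.3H3.2 exceeded H3.3null by 2.32 ± 0.21 at day 10 and 2.69 ± 0.21 at day 1, the greatest rises among the members in that comparison.

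Both members between stol, which encodes an auxiliary calcium channel subunit, and the cyclin gene CycE followed the same order. The peak at 2L 15722285 to 15723166 held 149, 142 and 134 CPM in H3.3H3.2, 104, 85.7 and 95.1 CPM in H3.3null and 123, 137 and 139.9 CPM in H3.3S31A at day 10, against 91.5, 96.5 and 94.7 CPM in OreR. H3.3H3.2 and H3.3S31A did not overlap H3.3null or OreR. H3.3H3.2 against H3.3null gave 0.58 ± 0.09 (SE, adjusted p 8.14e-06) at day 10 and 0.44 ± 0.09 (SE, adjusted p 0.000465) at day 1. In the interval of 89.7 kb between kek1, which encodes a transmembrane inhibitor of EGF receptor signalling, and the adenylyl cyclase gene ACXC, 4 of 5 members were higher in H3.3H3.2 than in H3.3null at each age. That direction was called in 3.64% of all peaks at day 10 and 4.91% at day 1. Against OreR, both H3.3H3.2 and H3.3S31A had 3 of the 5 called higher at day 10 and 4 of the 5 at day 1, while H3.3null had 0 of 5 called at either age. One example, at 2L 12861702 to 12862609, chosen after its values were seen, held 149, 137 and 112 CPM in H3.3H3.2, 124, 97.8 and 94.8 CPM in H3.3null and 131, 145 and 133 CPM in H3.3S31A at day 10, against 84.3, 97.2 and 94.7 CPM in OreR. At day 10 the H3.3H3.2 and H3.3null libraries overlapped there, while at day 1 they did not (134 to 138 CPM in H3.3H3.2 and 90.8 to 104 CPM in H3.3null, a difference of 0.50 ± 0.10). On 3R the peak at 3R 20514972 to 20515620, between MFS9 and the metallothionein gene MtnE, held 72.5, 85.5 and 83.9 CPM in H3.3H3.2 at day 1 and 52.1, 47.6 and 46.96 CPM in H3.3null, without overlap (0.72 ± 0.12, adjusted p 3.14e-05). It was named for that comparison alone. Its levels in OreR and H3.3S31A are not given here, so it is not placed in the order of the members above.

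Both members toward nAChRalpha4, which encodes a subunit of nicotinic acetylcholine receptors, changed in opposite directions in H3.3H3.2 and H3.3null at day 10. Both are centromere-side members. The peak at 3L 23199400 to 23200801, 5868 bp from that gene, held 171, 157 and 184 CPM in H3.3H3.2 and 347, 291 and 336 CPM in H3.3null at day 10, against 216, 244 and 198 CPM in OreR. OreR lay between the mutants and overlapped neither. The changes were -0.36 ± 0.11 (SE, adjusted p 0.0193) in H3.3H3.2 and 0.57 ± 0.10 (SE, adjusted p 5.7e-05) in H3.3null, and the direct difference was -0.93 ± 0.11 (SE, adjusted p 2.38e-08). At day 1 the same changes were -0.34 and 0.41, with a difference of -0.75. Its neighbour at 3L 23199050 to 23199334 gave -0.57 ± 0.17 (SE, adjusted p 0.0253) in H3.3H3.2 and 0.52 ± 0.16 (SE, adjusted p 0.0148) in H3.3null at day 10. Between Proc-R, which encodes the receptor for the neuropeptide proctolin, and CG15472 on X, 3 of 4 members were higher in H3.3null against OreR at day 10 and 3 of 4 were lower in H3.3H3.2 than in H3.3null. These directions were called in 15.5% and 7.05% of all peaks. The peak at X 4732211 to 4734922 held 249.5, 229 and 217 CPM in H3.3H3.2, 358, 292 and 369 CPM in H3.3null and 204, 227 and 183 CPM in H3.3S31A at day 10, against 264, 243 and 234 CPM in OreR. H3.3null lay above all other groups there, while H3.3H3.2 overlapped OreR and was not called (H3.3null against OreR, 0.46 ± 0.11, adjusted p 0.000881). The peak at X 4751997 to 4752271 in the same interval did not change detectably in H3.3null (0.06) and was lower in H3.3H3.2 (-0.43 ± 0.12, adjusted p 0.0168). In the interval between CG15186 and CG15185 on 3R, 4 of 6 members were higher in H3.3null against OreR at day 10, 1 of 6 was higher in H3.3H3.2 against OreR, and 4 of 6 were lower in H3.3H3.2 than in H3.3null. The shares of all peaks called in these directions were 15.5%, 7.13% and 7.05%.

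The greatest falls in H3.3null included a peak at 2L 11315230 to 11316235, between Osi21 and CG14926, named because it fell most and chosen after its values were seen. It held 123, 88.9 and 117 CPM in H3.3H3.2, 67.2, 59.7 and 82.8 CPM in H3.3null and 94.7, 188 and 196 CPM in H3.3S31A at day 10, against 201, 239 and 199.9 CPM in OreR. At day 1 it held 72.8, 69.2 and 67.5 CPM in H3.3null, against 200.3, 251 and 281 CPM in OreR. H3.3null lay below all other libraries of the same age, and its changes were -1.6 ± 0.25 (SE, adjusted p 8.49e-05) and -1.81 ± 0.25 (SE, adjusted p 2.03e-05). H3.3H3.2 was also lower than OreR there (-0.96 ± 0.24, adjusted p 0.0115 and -0.81 ± 0.23, adjusted p 0.0287). On 3L, the peak at 3L 15295937 to 15296476, 2482 bp from the bestrophin channel gene Best4 and beyond it flanked by the Toll-like receptor gene Tollo, fell in both H3.3null and H3.3S31A. It held 31.1, 28.7 and 36.9 CPM in H3.3null and 27.6, 33.7 and 41.4 CPM in H3.3S31A at day 10, against 68.1, 63.8 and 61.8 CPM in OreR. These groups did not overlap, with changes of -0.99 ± 0.15 (SE, adjusted p 1.48e-06) in H3.3null and -0.93 ± 0.14 (SE, adjusted p 6.16e-06) in H3.3S31A. H3.3H3.2 was in between (50.2, 47.6 and 46.8 CPM) and exceeded H3.3null by 0.57 ± 0.15.

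At the centromere end of the ranges more of the called members were lower than higher in H3.3null. Of the 47 members there, 21 (44.7%) were called in H3.3null at day 10, with 7 up and 14 down, and 24 (51.1%) at day 1, with 4 up and 20 down. Of all peaks, 24.5% were called at day 10 and 24.7% at day 1. Their median change was -0.04 at day 10 and -0.25 at day 1. Of the other 426 members, 114 (26.8%) were called in H3.3null at day 10, with 76 up and 38 down, and 97 (22.8%) at day 1, with 58 up and 39 down, and their median change was 0.02 at day 10 and 0.00 at day 1. At day 10, 7 of the 47 were called in H3.3H3.2 (2 up, 5 down, 14.9%, against 10.7% of all peaks) and 4 in H3.3S31A (1 up, 3 down, 8.51%, below the 10.2% of all peaks). At day 1, 9 were called in H3.3H3.2 (3 up, 6 down, 19.1%, against 11.1%) and 9 in H3.3S31A (2 up, 7 down, 19.1%, against 10.5%). The share of all peaks lower in H3.3null was 9% at day 10 and 10.6% at day 1. In the interval between ND-MLRQ and AGO3, 6 of 13 members were lower in H3.3null at day 10 and 7 of 13 at day 1, and none was higher. Among these, the peak at 3L 23461910 to 23464777 held 267, 228 and 276 CPM in H3.3null at day 10, against 455, 446 and 407 CPM in OreR, and 261, 271 and 245 CPM in H3.3null at day 1, against 410.2, 552 and 575 CPM in OreR. The groups did not overlap (-0.76 ± 0.17, adjusted p 0.00108 and -0.98 ± 0.17, adjusted p 5.54e-05). On 3R the peak at 3R 4048674 to 4049655, between CG41099 and CG42402, held 101, 77.2 and 95.2 CPM in H3.3H3.2 and 46.01, 50.8 and 58.4 CPM in H3.3null at day 1, against 98.8, 124 and 117 CPM in OreR. H3.3null lay below both other groups without overlap. H3.3null against OreR gave -1.13 ± 0.15 (SE, adjusted p 9.62e-07), and H3.3H3.2 against H3.3null gave 0.82 ± 0.15 (SE, adjusted p 0.000271).

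One member near the centromere was lower in every mutant at both ages. The peak at 3R 4143149 to 4143537, between Gfat1, which encodes an enzyme of hexosamine synthesis, and CG40198, held 34.3, 40.4 and 27.8 CPM in H3.3H3.2, 33.3, 21.9 and 25.3 CPM in H3.3null and 33.3, 34.1 and 40.7 CPM in H3.3S31A at day 10, against 55.6, 51.1 and 46.4 CPM in OreR. Every mutant library lay below every OreR library. The changes were -0.58 ± 0.15 (SE, adjusted p 0.0081), -0.93 ± 0.16 (SE, adjusted p 1.82e-05) and -0.51 ± 0.15 (SE, adjusted p 0.0243) in the same order. The H3.3H3.2 call was lost without H3.3H3.2 day 10 replicate 3 (-0.45) or OreR day 10 replicate 1 (-0.51). The H3.3S31A call was lost without H3.3S31A day 10 replicate 1 (-0.46) or replicate 2 (-0.47), or OreR day 10 replicate 1 (-0.44) or replicate 2 (-0.51), and its day 1 call without H3.3S31A day 1 replicate 1 (-0.45) or OreR day 1 replicate 2 (-0.48).

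In H3.3S31A the greatest fall among members at day 10 was at X 11196159 to 11196517, between CG15200 and CG11106. It held 17.3, 17.6 and 22.7 CPM in H3.3S31A at day 10, against 52.1, 50.8 and 45.7 CPM in OreR, and 20.4, 23.2 and 27.6 CPM in H3.3S31A at day 1, against 34.04, 47.7 and 39.7 CPM in OreR. The groups did not overlap, with changes of -1.38 ± 0.17 (SE, adjusted p 6.57e-08) and -0.78 ± 0.16 (SE, adjusted p 0.00066). In H3.3H3.2 the call of smallest p among lower members was at 3L 10830227 to 10830715, before tna, at -0.76 ± 0.13 (SE, adjusted p 6.02e-05) at day 10. In H3.3null the peak at 3R 22094069 to 22094265, between the immune-induced peptide gene BomBc3 and CG13407, held 24.05, 25.1 and 23.2 CPM at day 10, against 38.9, 48.4 and 51.8 CPM in OreR, without overlap (-0.95 ± 0.15, adjusted p 5.93e-06).

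H3.3H3.2 was set directly against H3.3null, a comparison in which line background and the H3.3 alteration cannot be told apart either. At day 10, 81 members (17.1%) were called, 27 higher and 54 lower, where 10.7% of all peaks were (3.64% up, 7.05% down). At day 1, 85 members (18%) were called, 39 higher and 46 lower, where 11.4% of all peaks were (4.91% up, 6.44% down). The share among members was above that of all peaks by more than in the comparisons with OreR, and this was not tested. The other peaks of the same ranges were called at 11.1% at day 10 and 10.6% at day 1. Beside those other peaks, the members' excess was of similar size in the comparisons with OreR. At day 10 members and other peaks were called at 13.3% and 6.61% in H3.3H3.2, 28.5% and 19.8% in H3.3null, and 12.1% and 5.96% in H3.3S31A. At day 1 these were 13.7% and 6.51%, 25.6% and 19.1%, and 13.3% and 6.42%. The day 10 count was 53 without H3.3H3.2 day 10 replicate 3, and the day 1 count was 55 without H3.3null day 1 replicate 1. Of the 47 centromere-side members, 2 were higher and 2 lower at day 10 (median 0.04), and 11 were higher and 2 lower at day 1 (median 0.24). Of the other 426, 25 were higher and 52 lower at day 10, and 28 higher and 44 lower at day 1.

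**Figure D3:**
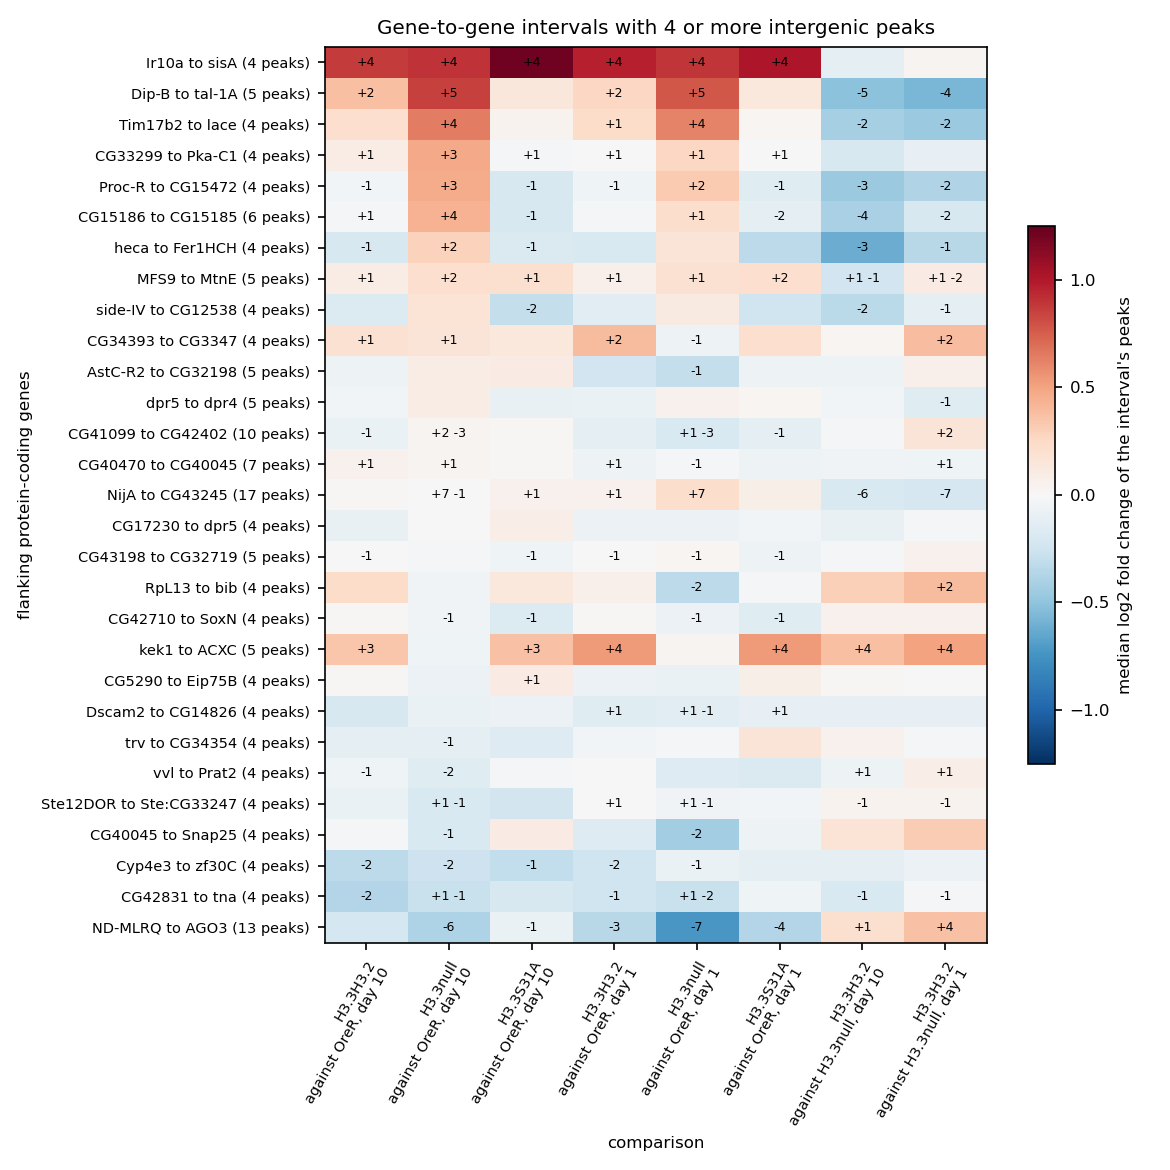
Median log2 fold change (colour) of the members in the 29 gene-to-gene intervals that hold 4 or more, in 8 comparisons (columns), ordered from top to bottom by the change in H3.3null against OreR at day 10. Numbers in the cells count members called higher (+) or lower (-). The interval between Ir10a and sisA has all 4 members higher in each of the 6 mutant against OreR comparisons, and that between kek1 and ACXC has none called in H3.3null.

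Members of the same interval had correlated changes, described across 217 pairs of adjacent members that share libraries and neighbourhood. The Pearson correlation of their log2 fold changes was 0.39 in H3.3H3.2, 0.53 in H3.3null and 0.35 in H3.3S31A at day 10, and 0.41, 0.63 and 0.35 at day 1. Members and the nearest peak over a gene body, a median of 17.9 kb away, were less alike, with correlations of 0.04, 0.17 and 0.04 at day 10 and 0.03, 0.09 and 0.04 at day 1, over 251 distinct gene peaks. The spacing of adjacent members was not summarised, and some pairs nearly touch, such as 3L 23199050 to 23199334 and 3L 23199400 to 23200801. Distance was not matched, so what the lower correlation with gene peaks reflects was not tested. In day 10 H3.3null brains, 16 of the 83 higher members had a nearest gene peak that was also higher and 2 one that was lower. Of all peaks, 15.5% were higher and 9% lower there. At day 1 these were 19 and 2 of 62, where 14.1% of all peaks were higher and 10.6% lower. Among lower members, 8 of 52 at day 10 and 9 of 59 at day 1 had a nearest gene peak also lower. For 2 and 6 of them it was higher. The 29 intervals with 4 or more members held 155 members, and without them the members called in H3.3null were 76 of 318 (23.9%) at day 10 and 68 of 318 (21.4%) at day 1. Called members were thus spread over many intervals, and at day 10 at least 1 was held by 48 of the 256 intervals for H3.3H3.2, 85 for H3.3null and 45 for H3.3S31A.

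For each mutant the day 10 and day 1 comparisons share no libraries, and many members were called at both ages. Of the members called in H3.3H3.2, 40 were called in the same direction at both ages, which is 63.5% of those called at day 10 and 61.5% of those called at day 1. In H3.3null 77 were (57.0% and 63.6%), and in H3.3S31A 35 were (61.4% and 55.6%). Across the 473 members the Pearson correlation of the day 10 and day 1 changes was 0.82 in H3.3H3.2, 0.80 in H3.3null and 0.81 in H3.3S31A, given as a description since members are not replicates. Neither the overlap nor the correlation was computed over all peaks, so they are not shown to be particular to the members. Only 1 member, in H3.3null, was called in opposite directions, and it lies at 2L 3251551 to 3252027.

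**Figure D4:**
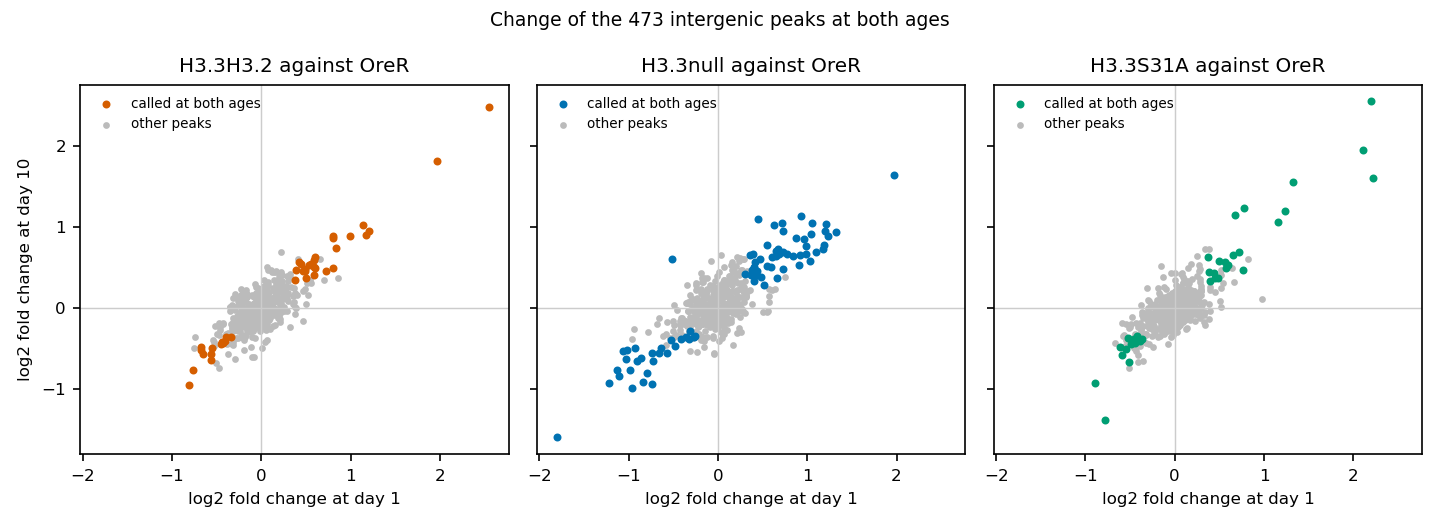
Log2 fold change against OreR of the 473 intergenic peaks at day 10 (y axis) and day 1 (x axis) in H3.3H3.2, H3.3null and H3.3S31A. Coloured points were called at both ages, and in H3.3null 1 of them lies at -0.51 at day 1 and 0.60 at day 10.

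Within single genotypes few members were called with age. Day 10 against day 1, 5 members (1.06%, 1 higher and 4 lower) were called in H3.3H3.2, 2 (0.423%, 1 higher and 1 lower) in H3.3null, 6 (1.27%, 0 higher and 6 lower) in H3.3S31A and 14 (2.96%, 5 higher and 9 lower) in OreR. Of all peaks, 0.61% were called in H3.3H3.2 (0.0897% up, 0.52% down), 0.924% in H3.3null (0.386% up, 0.538% down), 0.987% in H3.3S31A (0.188% up, 0.799% down) and 1.91% in OreR (0.718% up, 1.19% down). Averaged over the 4 genotypes, 54 members (11.4%) were called, 21 higher and 33 lower, where 10.1% of all peaks were (5% up, 5.13% down). The 4 counts within genotypes changed by more than 1.5 times when single libraries were left out, to 2 or 3 in H3.3H3.2 (without day 10 replicates 1, 2 or 3 or day 1 replicates 1 or 2), 1 in H3.3null (without day 10 replicate 1 or any day 1 replicate), 1 or 2 in H3.3S31A (without day 10 replicates 2 or 3 or day 1 replicate 2) and 5 to 8 in OreR (without day 10 replicates 1 or 3 or any day 1 replicate).

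One member was lower at day 10 in every genotype. It is a 179 bp peak at 3R 6853137 to 6853316, 3156 bp from the Hox gene Scr, which specifies a head and a thorax segment, and flanked on the other side by the pair-rule gene ftz. At day 10 it held 19.5, 23.4 and 19.2 CPM in H3.3H3.2, 16.96, 18.02 and 21.8 CPM in H3.3null, 25.1, 18.99 and 24.4 CPM in H3.3S31A and 24.2, 14.7 and 18.6 CPM in OreR. At day 1 it held 44.1, 43.9 and 44.7 CPM in H3.3H3.2, 40.2, 39.8 and 33.3 CPM in H3.3null, 34.96, 43.6 and 31.3 CPM in H3.3S31A and 50.4, 40.5 and 45.7 CPM in OreR. All 12 day 10 libraries lay below all 12 day 1 libraries. The changes were -1.1 ± 0.16 (SE, adjusted p 9.79e-05) in H3.3H3.2, -0.98 ± 0.17 (SE, adjusted p 0.00104) in H3.3null, -0.68 ± 0.16 (SE, adjusted p 0.0253) in H3.3S31A and -1.24 ± 0.16 (SE, adjusted p 1.1e-05) in OreR, with a mean of -1.0 ± 0.08 (SE, adjusted p 2.6e-11). The H3.3S31A call was lost when H3.3S31A day 1 replicate 2 or H3.3S31A day 10 replicate 2 or 3 was left out. This peak did not differ detectably between any mutant and OreR at either age.

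Several other members lower at day 10 lay beside developmental transcription factor genes. The peak at 2L 15339530 to 15339953, 3392 bp from esg, which encodes a Snail-family zinc finger factor, held 41.4, 37.6 and 38.6 CPM in OreR at day 10 and 63.3, 59.98 and 61.5 CPM in OreR at day 1. These did not overlap, and the change was -0.65 ± 0.12 (SE, adjusted p 0.000902). In H3.3null this peak was lower than in OreR at day 1 (34.1, 40.9 and 41.1 CPM, -0.67 ± 0.12, adjusted p 3.08e-05) and held 35.8, 35.5 and 36.3 CPM at day 10. With age, the peak at 2L 5421590 to 5422069, between the T-box genes H15 and mid, changed by -0.49 ± 0.07 over the 4 genotypes, and the peak at 3R 13877137 to 13877515, between the homeobox genes E5 and ems, by -0.44 ± 0.06. The peak at X 17345990 to 17346265, between the Bar homeobox genes B-H2 and B-H1, changed by -0.37 ± 0.08. Outside this list, the peak at 3R 14050226 to 14051082, 5863 bp from foxo, which encodes the forkhead factor downstream of insulin signalling, held 102, 97.2 and 126 CPM in OreR at day 10 and 154, 138 and 145 CPM in OreR at day 1, without overlap, and its mean change was -0.44 ± 0.05 (SE, adjusted p 2.13e-08). The peak at 2L 6817413 to 6817808, beside the zinc finger gene sens-2, was lower at day 10 (-0.33 ± 0.05) and also lower in H3.3null and H3.3S31A against OreR at both ages (-0.50 and -0.38 at day 10).

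By list, 43 members were flanked by a developmental transcription factor gene, and 13 of them (30.2%) were called in the mean age change, 2 higher and 11 lower, with a median of -0.07. Over all members 11.4% were called, with a median of 0.00. The 11 included the members beside Scr and ftz, H15 and mid, esg, E5 and ems, B-H2 and B-H1, opa, lbe and fru, and both members beside HGTX. The members beside nub (0.21) and ct (0.20) were the 2 that were higher. The lists were drawn up with earlier results of these data known, and no test of a list was made. Of all peaks 10.1% were called. Of 42 members beside wiring and adhesion genes, 1 was higher and 2 lower (7.14%). Of 22 beside channel, receptor and transmitter genes, 2 were higher and 1 lower (13.6%), among them the peak at 3L 9187997 to 9188966, beside the GABA receptor gene Rdl, with 0.23 ± 0.05. None of the 13 beside neuropeptide and peptide receptor genes was called. The greatest rise with age over the 4 genotypes was at 3R 13809180 to 13809626, between Dip-B and tal-1A, at 0.33 ± 0.06 (SE, adjusted p 0.000308), and 5 of the 17 members between NijA and CG43245 were also higher. No centromere-side member was called in the mean age change.

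**Figure D5:**
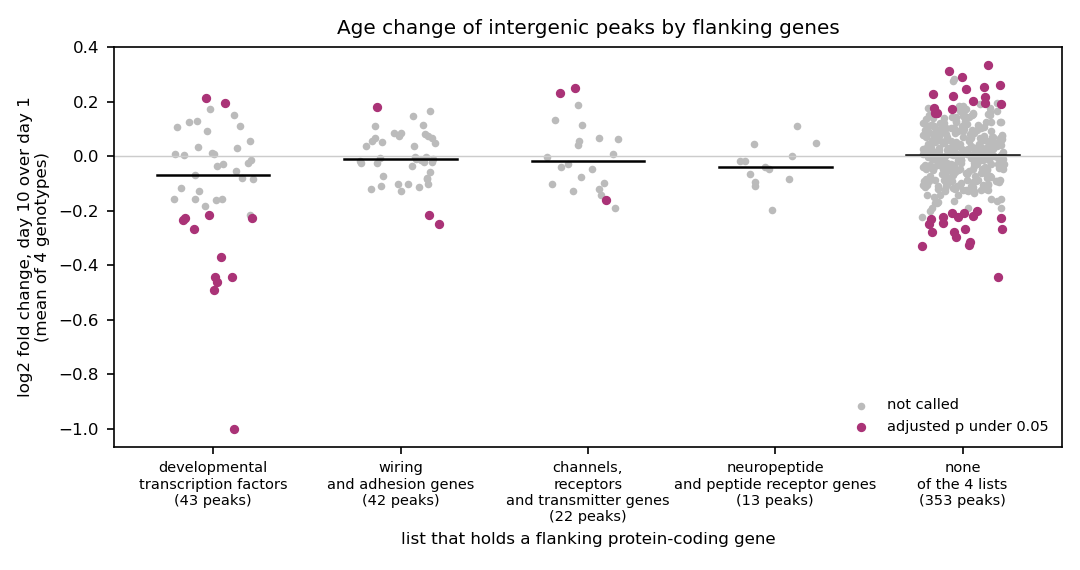
Log2 fold change of day 10 over day 1, as the mean of 4 genotypes (y axis), of the members grouped by the list that holds a flanking protein-coding gene. Points are members, coloured where the adjusted p is under 0.05, and black lines are medians. The lowest point, at -1.0, is the peak between Scr and ftz.

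In the mutants the same lists had members called in both directions. Beside developmental transcription factor genes, H3.3H3.2 against OreR had 3 higher and 1 lower of 43 at day 10 (9.3% called, where 10.7% of all peaks were) and 2 higher and 0 lower at day 1 (4.65%, where 11.1% of all peaks were). H3.3null had 4 higher and 10 lower at day 10 (32.6%, against 24.5% of all peaks) and 5 higher and 7 lower at day 1 (27.9%, against 24.7%). H3.3S31A had 0 higher and 1 lower at day 10 (2.33%, against 10.2%) and 2 higher and 1 lower at day 1 (6.98%, against 10.5%). H3.3H3.2 against H3.3null had 8 higher and 3 lower at day 10 (25.6%, against 10.7%) and 7 higher and 1 lower at day 1 (18.6%, against 11.4%). Beside hb, a zinc finger factor gene of segmentation, the peak at 3R 8708968 to 8709363 was higher in H3.3null at day 10 (0.66 ± 0.15, adjusted p 0.000645), and beside lbe, a homeobox gene, the peak at 3R 21459995 to 21460340 was lower (-0.54 ± 0.12, adjusted p 0.000774). Among 42 members beside wiring genes, 3 were higher and 0 lower in H3.3null at day 10 (7.14%, below the 24.5% of all peaks) and 3 higher and 4 lower at day 1 (16.7%, below the 24.7% of all peaks). Among these 42, the peak at 2L 17277090 to 17277786, beside beat-IIIc of the Beat family of axon guidance proteins, held 91.3, 67.4 and 85.5 CPM in H3.3null at day 10, against 53.6, 50.8 and 51.3 CPM in OreR, without overlap (0.65 ± 0.12, adjusted p 4.53e-05). Another, at 3L 7215779 to 7216325, beside the adhesion gene Dscam2, was higher at day 1 by 0.47 ± 0.12 in H3.3H3.2, 0.64 ± 0.12 in H3.3null and 0.52 ± 0.12 in H3.3S31A, and no change was detectable at day 10. Beside side-IV, of the family of Beat partners, the peak at 3R 13518648 to 13519944 was lower in H3.3S31A at day 10 (-0.44 ± 0.11, adjusted p 0.00661).

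Channel, receptor and transmitter genes flanked 22 members, of which 5 were higher and 3 lower in H3.3null at day 10 (36.4%, against 24.5% of all peaks) and 2 higher and 2 lower at day 1 (18.2%, against 24.7%). In H3.3H3.2, 1 was higher and 4 lower at day 10 (22.7%, against 10.7%) and 1 higher and 3 lower at day 1 (18.2%, against 11.1%). The members named beside nAChRalpha4 are centromere-side members, and this list was not counted without them. Among these 22, the peak at 3L 9330069 to 9330411, beside the glutamate receptor gene GluRIB, held 47.2, 61.4 and 70.9 CPM in H3.3H3.2 and 46.9, 57.6 and 61.2 CPM in H3.3null at day 10, against 29.4, 30.4 and 36.8 CPM in OreR. The mutants lay above OreR without overlap (0.88 ± 0.23 and 0.78 ± 0.23). The peak at 3L 23315349 to 23315901, between nAChRalpha4 and alpha-Cat, was lower in H3.3null, with 30.6, 36.4 and 39.6 CPM at day 1, against 64.1, 70.6 and 69.2 CPM in OreR, and no overlap (-0.93 ± 0.15, adjusted p 1.31e-05). Neuropeptide and peptide receptor genes flanked 13 members, of which 3 were higher and 0 lower in H3.3null at day 10 (23.1%, against 24.5% of all peaks) and 2 higher and 3 lower at day 1 (38.5%, against 24.7%). Beside SPR, the sex peptide receptor gene, the peak at X 5441675 to 5442032 fell in day 1 H3.3null brains (-0.47 ± 0.13, adjusted p 0.00749), a call lost without H3.3null day 1 replicate 1 (-0.37).

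Whether age changed a mutant differently from OreR was tested with an interaction term. No member passed the adjusted threshold in edgeR's test in H3.3H3.2, H3.3null or H3.3S31A, and the share of all peaks called was 0 in each. At an unadjusted p under 0.05 the counts were 21, 58 and 22 of 473 in that order. The share of all peaks at that unadjusted threshold was not counted, so these counts are not read as a result about the members. The smallest adjusted p was 0.0571, in H3.3null, at 2L 3251551 to 3252027. DESeq2's Wald test called 0 members in H3.3H3.2, 1 in H3.3null and 0 in H3.3S31A. For H3.3null, 1 member was also called when only the groups involved were fitted, and 1 without H3.3null day 10 replicate 3 or OreR day 1 replicate 3.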

How the data were processed

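ATAC-seq reads were counted per peak in 24 libraries by the authors, who deposited 1 table of whole-number counts for 11145 peaks. The submitters' processing notes name STAR 2.7.7a, SAMtools 1.9, bedtools 2.26, deepTools 3.2.0, featureCounts of Subread 2.0.1, DESeq2 1.34.0 and the dm6 build. The peak caller, duplicate handling, any shift for the transposase and the coordinate base are not given in the sources used here. The gene set held 17684 RefSeq Release 6 genes on 2L, 2R, 3L, 3R, X and chromosome 4, and distances were measured to those of the peak's own arm. Counts were scaled by TMM (factors 0.97 to 1.02) and fitted in R 4.3.3 with edgeR 4.0.16 (glmQLFit, robust, 8 groups, 16 residual degrees of freedom, biological coefficient of variation 8.96%). Each contrast was tested by edgeR's quasi-likelihood test with Benjamini-Hochberg adjustment over all peaks, at 0.05. DESeq2 1.42.0 was an alternative. CPM are the deposited counts per 1000000 of the TMM-scaled total, so a change in all peaks alike cannot be seen. Peaks were named as those of smallest p without overlap in each contrast (up to 3 per direction), those called in all mutants, the highest, widest and farthest, and up to 2 per list and direction. The members and gene lists were chosen with earlier results of these data known. Replicate numbers did not pair the libraries. One member's result is not reported here.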

Additional observations from a re-analysis of the deposited data

Results flagged for a closer look

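The member at 2L 3251551 to 3252027, between CG34393 and CG3347 and 8946 bp from the nearest gene, a long noncoding RNA, changed in opposite directions in H3.3null at day 10 and day 1, without overlap of the libraries at either age. At day 10 it held 71.2, 71.8 and 54.6 CPM in H3.3null, against 41.6, 50.6 and 37.03 CPM in OreR, a log2 fold change of 0.60 ± 0.16 (edgeR adjusted p 0.0035). At day 1 it held 36.1, 46.5 and 44.9 CPM in H3.3null, against 63.9, 66.9 and 51.7 CPM in OreR, a change of -0.51 ± 0.16 (adjusted p 0.0136). The difference between the ages was 1.11 ± 0.22 by edgeR's interaction test (unadjusted p 1.54e-05, adjusted p 0.0571), which misses the threshold. In H3.3H3.2 the same peak was higher than in OreR at both ages (0.50 ± 0.15 and 0.59 ± 0.14). H3.3H3.2 lay within the H3.3null range at day 10 (58.3 to 63.5 CPM, against 54.6 to 71.8 CPM in H3.3null) and above it at day 1 (68.2 to 105 CPM, against 36.1 to 46.5 CPM in H3.3null, 1.1 ± 0.15, adjusted p 1.57e-06). With age it was higher in H3.3null (0.62 ± 0.16, adjusted p 0.0441, 3 of 3 day 10 libraries above all day 1 libraries) and lower in H3.3H3.2 (-0.58 ± 0.14, adjusted p 0.0482). The H3.3null age call was lost without any of 5 libraries, H3.3null day 10 replicates 1 or 2 or H3.3null day 1 replicates 1, 2 or 3, with changes of 0.52 to 0.69. The H3.3H3.2 age call was likewise lost without H3.3H3.2 day 10 replicate 1, 2 or 3 or H3.3H3.2 day 1 replicate 1 or 2.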

How the results depend on the processing

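No change of a named peak reversed under any alternative. The majority direction among called members did turn in some settings. Over 5 kb from every gene, the mean age change had 11 higher and 9 lower, against 21 and 33 in the main test. At that distance, H3.3null at day 1 had 27 and 34, against 62 and 59. H3.3H3.2 against H3.3null at day 1 had 26 and 21, against 39 and 46. In a fit of the compared groups alone, H3.3S31A at day 1 had 28 and 21, against 30 and 33. It also had 41 and 37 over 1 kb from every gene and 38 and 37 over 2 kb from protein-coding genes. Without centromere-side members it had 28 and 26, and without OreR day 1 replicate 2 it had 23 and 15. H3.3null at day 1 had 33 and 35 without intervals of 4 or more members. Age in OreR had 3 and 1 over 5 kb from every gene, against 5 and 9. The share of members called is given in percent. With a log2 change of 1 or more in size also required, it was 0.634 (H3.3H3.2), 1.69 (H3.3null) and 1.9 (H3.3S31A) against OreR at day 10, 1.06, 3.81 and 1.27 at day 1 in the same order, and 0.423 at day 10 and 1.06 at day 1 for H3.3H3.2 against H3.3null. For age it was 0.211 in H3.3H3.2, 0 in H3.3null and H3.3S31A, 0.211 in OreR and 0.211 in the mean. A fit of the compared groups alone gave 20.3 in H3.3H3.2 at day 10, 1.9 and 0.846 for age in H3.3H3.2 and H3.3S31A, and 0.211 for the age difference of H3.3null from OreR. The DESeq2 Wald test gave 2.33 for age in H3.3S31A and 0.211 for that difference. Age gave 0.893 in H3.3null over 2 kb from protein-coding genes, and 0.45 in H3.3S31A and 1.8 in OreR over 5 kb from every gene. The cause of these moves was not tested.

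Leaving out 1 library gave 8.03 to 11.2 (H3.3H3.2), 22.2 to 26.6 (H3.3null) and 8.25 to 10.8 (H3.3S31A) at day 10, 8.67 to 12.3, 21.8 to 23.5 and 8.03 to 14.4 at day 1, and 11.2 to 15.6 at day 10 and 11.6 to 16.5 at day 1 for H3.3H3.2 against H3.3null. For age it gave 0.423 to 0.846 in H3.3H3.2, 0.211 to 0.634 in H3.3null, 0.211 to 1.27 in H3.3S31A, 1.06 to 2.11 in OreR and 9.51 to 12.3 in the mean, and 0 to 0.211 for the age difference of H3.3null. Of 134 results for named peaks, 61 of 912 refits without 1 library lost the call, as did 93 with the fold limit, 3 in the compared groups alone and 1 with DESeq2 size factors.

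Libraries with the same replicate number did not deviate together (median correlation -0.007, range -0.389 to 0.384, 84 pairs). With the replicate number as a block the share was 14.4 (H3.3H3.2), 30 (H3.3null) and 12.5 (H3.3S31A) at day 10, 14.4, 26.2 and 14.4 at day 1, and 0.211 for the age difference of H3.3null from OreR. Without the centromere-side members, an alternative chosen after seeing the data, H3.3null gave 26.8 at day 10 and 22.8 at day 1.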

Other observations

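A member 5174 bp from robo3, which encodes a receptor for the guidance cue Slit, at 2L 1301770 to 1302317, stood out by its spread and was picked after its values were seen. It held 283, 370.3 and 237 CPM in H3.3S31A at day 10, against 111, 94.8 and 87.7 CPM in OreR, and 450.1, 525 and 496 CPM in H3.3S31A at day 1, against 80.2, 111 and 123 CPM in OreR. H3.3S31A lay above OreR without overlap, by 1.61 ± 0.46 (SE, adjusted p 0.0318) and 2.22 ± 0.46 (SE, adjusted p 0.00287) in edgeR's test. In H3.3null at day 1 its 3 libraries held 13.1, 102 and 181 CPM, a wider spread than in any other group, and per kb of peak it was the densest member, at 353 CPM. The other members between robo3 and a5, at 2L 1304124 to 1305139 and 2L 1312001 to 1312433, changed in H3.3S31A by -0.26 and 0.19 at day 10 and by -0.14 and 0.18 at day 1.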
